A study of Mus musculus with 6 samples.

Results

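The heat shock chaperones described here are 10 of the 55487 genes in the deposited count table: Hspa1a, Hspa1b, Hspa8, Hsph1, Dnajb1, Hsp90aa1, Hsp90ab1, Hspb1, Hspa5 and Hspd1. They were chosen by name, as the rows whose Ensembl mouse gene ID maps to these symbols in the GENCODE annotation of GRCm38. All 10 were found, and all 10 passed the filter on low counts that left 16119 genes to test. RNA came from visual cortex dissected at postnatal day 28 from mice of strain B6.CBA/Tar. Mmp9, whose product is a secreted protease that cuts extracellular matrix, carries a mutated untranslated region in this line. The 3 genotypes had 2 libraries each: WT (WT/WT, 0 mutant alleles), het (UTRmut/WT, 1 mutant allele) and UTRmut (UTRmut/UTRmut, 2 mutant alleles). Each genotype had 1 female and 1 male library, so the sex of a library and any other property of it cannot be told apart within a genotype. The labels do not say which untranslated region is changed, whether a library holds 1 animal or a pool, or whether the animals were littermates. The p-values therefore measure only the spread between these libraries.

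Heat shock proteins bind unfolded protein and help it fold, stay soluble or be degraded. When proteins unfold in the cytosol, heat shock factor 1 (Hsf1) binds heat shock elements, which are inverted repeats of GAA and TTC, and transcription of the inducible members rises within minutes. In brain tissue these inducible transcripts are known to respond to heat, ischaemia and the handling of tissue. The endoplasmic reticulum and the mitochondria have chaperones of their own, and the endoplasmic reticulum member Hspa5 answers to the unfolded protein response. The set was therefore read here as a gauge of stress on the tissue beside the genotype.

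The members differ in which of these elements lie near their start sites, and the elements are shown for that reason. RefSeq promoter windows on GRCm38.p6, from 250 bases before to 50 bases after a start site, were available for 7 of the 10 members. The searched cores were GAANNTTC and TTCNNGAA, each its own reverse complement, so both strands were covered. The longer form GAANNTTCNNGAA or TTCNNGAANNTTC contains the cores. In the lines that follow, written 5′ to 3′ on the gene's strand, capitals mark the GAA and TTC units, and in the last line the ends of an endoplasmic reticulum stress element.
Hspa1a, chr17:34972249-34972264, minus strand: gctgGAAgaTTCctgg
Hspa1b, chr17:34959331-34959346, minus strand: gctgGAAgaTTCctgg
Hsph1, chr5:149636358-149636373, minus strand: atctTTCtcGAAggct
Hsph1, chr5:149636284-149636304, minus strand: cagaTTCtgGAAagTTCtcct
Hspb1, chr5:135887798-135887813, plus strand: aagaGAAgtTTCcaga
Hspb1, chr5:135887818-135887833, plus strand: ggcaGAAccTTCctgg
Hspd1, chr1:55088055-55088080, minus strand: ggccTTCcgGAAggTTCtaGAAcgga
Hspa5, chr2:34772025-34772043, plus strand: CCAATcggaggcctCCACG

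Hspa1a and Hspa1b carried the same 16 bases at the same place, with the units at positions -104 to -97 from the start site. Hspd1 had the longest run, with 4 units over 18 bases. A core of either form was present in 15.1% of the 32544 promoter windows in the RefSeq table, and the 3-unit form in 0.608%. Among the members 6 of 10 windows, from 5 genes, held a core. The endoplasmic reticulum stress element, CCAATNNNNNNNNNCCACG on either strand, was present in 0.12% of windows, and among the members in Hspa5. The 2 windows of Dnajb1 held neither core. A match describes the letters and shows neither binding nor a cause.

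The libraries held 9500090 to 11966579 counts, and 23353 to 23845 genes were detected in each. Levels are given in counts-per-million (CPM) after scaling by edgeR's TMM factors. The mutated gene itself was near the limit of detection, with Mmp9 counts of 4, 9 and 8 in the WT, het and UTRmut females and 9, 9 and 16 in the males, which does not check the genotypes. All 8 neuronal markers were measured, at a summed 6170 to 6870 CPM, so the defining genes of cortical neurons were present. Markers of choroid plexus summed to 49.3 CPM in the WT male and to 2.33 to 10.2 CPM in the other 5 libraries.

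Expressed per kilobase of exon, so that genes can be compared, the cytosolic constitutive members were the most abundant. Hsp90ab1 had a mean level of 374 CPM per kilobase (SD 25.0 over the 6 libraries) and Hspa8 308.5 (SD 30.7). Hsp90aa1 followed at 225 (SD 17.2) and Hspa5 at 99.9 (SD 14.9). Hspd1 at 48.8 and Hsph1 at 39.1 came next, then Dnajb1 at 18.8. Hspb1 at 1.54, Hspa1b at 0.741 and Hspa1a at 0.528 formed a lowest group, well under Dnajb1 in every library. Neighbours in this order whose ranges over libraries overlapped were Hsp90ab1 with Hspa8, Hspd1 with Hsph1, and Hspa1b with Hspa1a. Hsph1 and Hspd1 changed places when the longest transcript was used as the length. Levels of members that share sequence with other genes rest on how reads were assigned. Gm15459, a pseudogene with much of the Hspa8 sequence, had counts equal to 29.4% of those of Hspa8 and was not included. The order of Hspa8 and Hsp90ab1 therefore depends on that assignment.

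**Figure D1:**
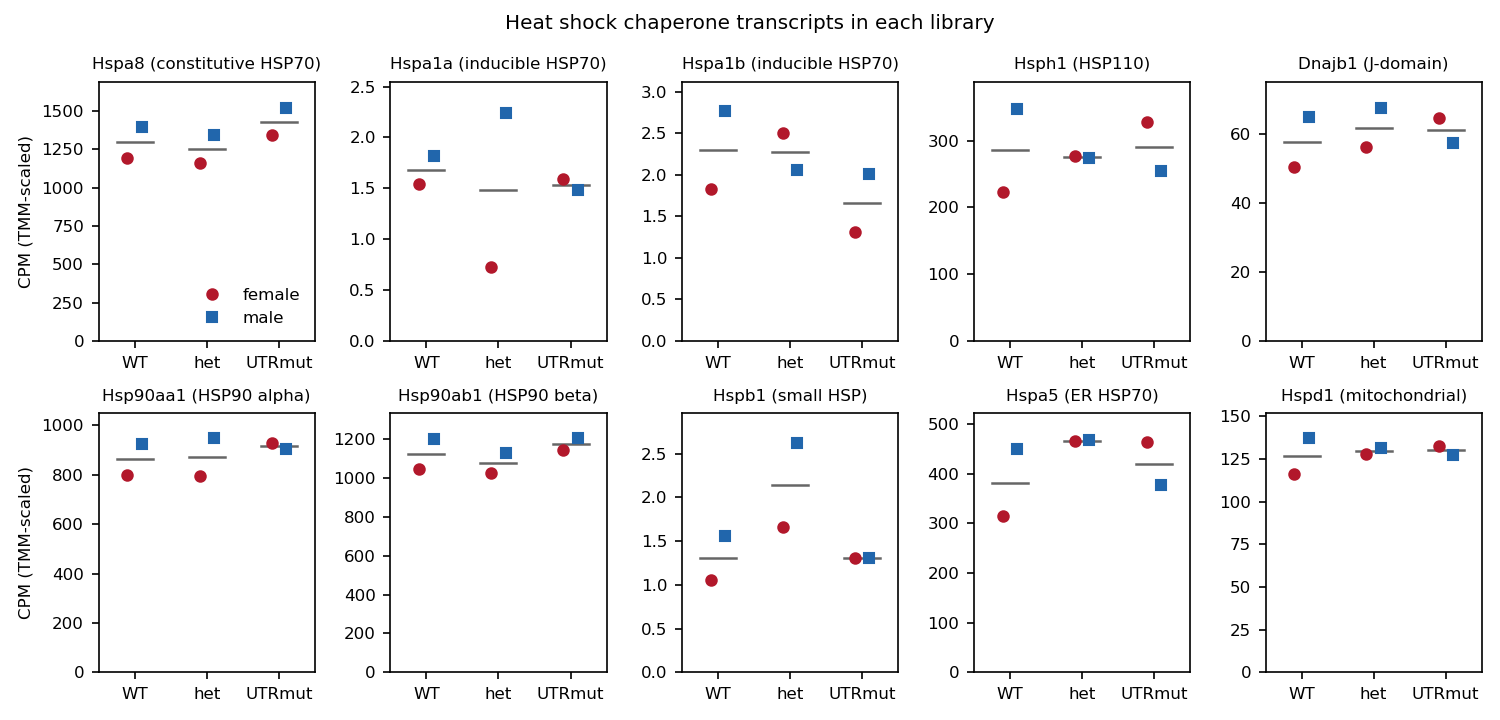
TMM-scaled counts-per-million (vertical axes, from 0) of the 10 chaperone genes by genotype, with 1 female library (circle) and 1 male library (square) per genotype and the mean of both as a bar. Hspa1a, Hspa1b and Hspb1 stay under 3 CPM in every library, and the WT female is the lowest library for 5 of the 10 genes.

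No chaperone gene passed the test in any comparison of genotypes. In UTRmut against WT 0 of 10 passed (edgeR quasi-likelihood test, Benjamini-Hochberg adjusted p under 0.05), where 0.0062% of all genes tested passed. In het against WT 0 of 10 passed beside 0.0124% of all genes, and in UTRmut against het 0 of 10 beside 0.0124%. A fit of the change per mutant allele also called 0 of 10, beside 0% of all genes. None of these comparisons had a member at an unadjusted p under 0.05, and DESeq2 called 0 members in each. The 3 pairwise comparisons share libraries and are not independent.

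The median log2 fold of the members was 0.05 in UTRmut against WT, beside -0.01 over all genes tested. It was -0.01 in het against WT, 0.01 in UTRmut against het and 0.03 per mutant allele. All 10 intervals included 0 in each comparison. The difference between the 2 WT libraries was larger than the fold of UTRmut against WT for 10 of 10 members, beside 67.3% of all genes. Groups did not overlap for 0 of 10 members in UTRmut against WT, beside 28.6% of all genes. They did not overlap for Hspa5 and Hspb1, 2 of 10, in het against WT, beside 27.1%. In UTRmut against het they did not overlap for 4 of 10, beside 34.3%, with Hsp90ab1 higher and Hspa5, Hspa1b and Hspb1 lower in UTRmut.

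**Figure D2:**
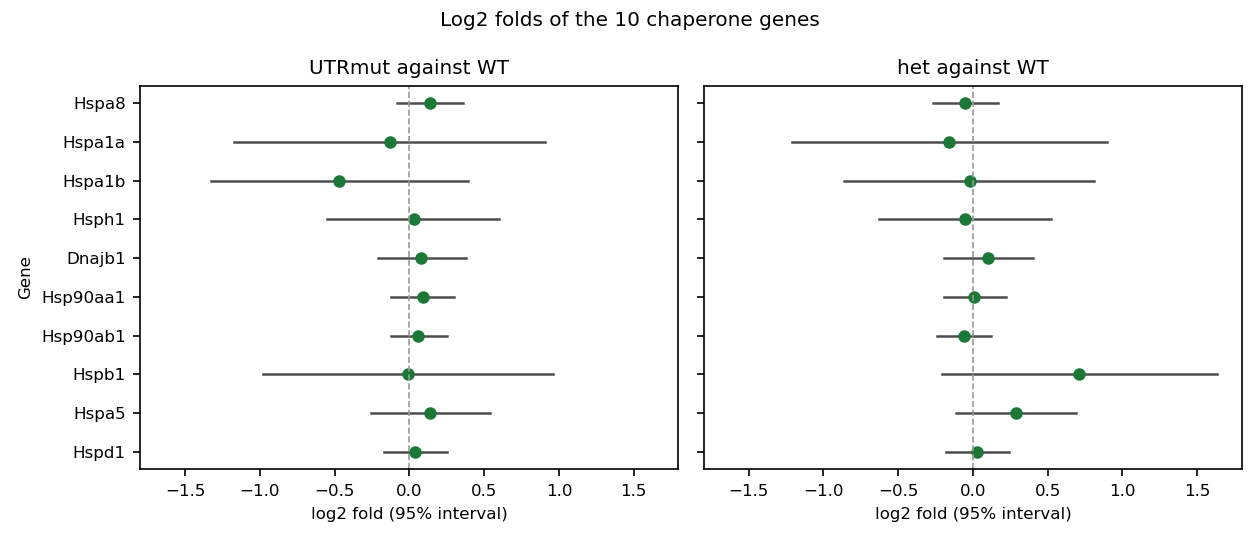
Log2 folds (points) of the 10 chaperone genes with 95% intervals (lines) from edgeR for UTRmut against WT and het against WT, which share the WT libraries. Every interval includes 0, and the widest belong to Hspa1a, Hspa1b and Hspb1, which have 7 to 32 counts per library.

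The inducible HSP70 genes Hspa1a and Hspa1b encode nearly the same protein, which refolds and holds damaged protein after stress, and lie side by side on chromosome 17 (Hspa1a at chr17:34969190-34972156, Hspa1b at chr17:34956436-34959238, each 1 exon on the minus strand). Hspa1a had 16, 7 and 17 counts in the WT, het and UTRmut females and 21, 24 and 17 in the males. The het libraries were both the lowest and the highest, so all groups overlapped, and the log2 fold of UTRmut against WT was -0.13 (SE 0.48). Hspa1b had 19, 24 and 14 counts in the females and 32, 22 and 23 in the males. The UTRmut female stood lowest and the WT male highest, and UTRmut overlapped WT. Its log2 fold of UTRmut against WT was -0.47 (SE 0.40, 95% interval -1.33 to 0.39).

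Reads of these genes are hard to assign. Of the 50-base windows of the Hspa1a transcript, 66.3% also occur in another annotated gene, and of those of Hspa1b 62.3%, mostly in each other. Their counts were therefore also added. The sum was 35, 31 and 31 in the WT, het and UTRmut females and 53, 46 and 40 in the males, or 2.9 to 4.58 CPM. Within each genotype the male had more than the female. The summed log2 fold was -0.32 (SE 0.31, interval -0.98 to 0.34) in UTRmut against WT and -0.08 (SE 0.31) in het against WT, with adjusted p = 0.999 and 0.9998 from edgeR's test with Benjamini-Hochberg adjustment. The first interval does not exclude a fall as large as -0.98 on the log2 scale. Gm10501, a nearby gene annotated as antisense, had 57 to 105 counts, more than either gene. It lies at chr17:34976899-34981788 on the minus strand, as Hspa1a does, and does not overlap Hspa1a. Gm20481, annotated as protein-coding on the opposite strand, overlaps Hspa1a by 2225 bases and had 0 counts in every library. The strand setting of the counting is not given, and the effect of this overlap on the Hspa1a counts was not tested.

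Hspa8 (chr9:40800984-40810087, plus strand) encodes the constitutive cytosolic HSP70, which also uncoats clathrin vesicles at synapses. It stood at 1195, 1163 and 1340 CPM in the WT, het and UTRmut females and at 1398, 1345 and 1520 CPM in the males. Every male library was above every female library, though the het male at 1345 CPM was only just above the UTRmut female at 1340 CPM. In both sexes UTRmut was the highest genotype. UTRmut against WT gave a log2 fold of 0.14 (SE 0.10) and overlapped. Against het the value was 0.19 (SE 0.10), with an unadjusted p of 0.0827.

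Hspa8 also has the most shared sequence of the 10, with 74.8% of its 50-base windows present elsewhere in the annotation. Most of these lie in Gm15459, a processed pseudogene (chr5:5781615-5783555, minus strand) that shares 1642 of the 2345 windows. Gm15459 had 1727, 4210 and 5292 counts in the WT, het and UTRmut females and 6045, 5354 and 2685 in the males, in all 29.4% of the Hspa8 counts. It was low in the WT female and the UTRmut male and high in the other 4 libraries, a 3.13-fold range beside 1.31-fold for Hspa8. How the counting treated reads that match both genes is not given in the sources used here. Added together, the genes stood at 1362, 1602 and 1834 CPM in the females and 1920, 1845 and 1754 CPM in the males. In this sum UTRmut was the highest genotype in females but the lowest in males. The UTRmut female was then above the UTRmut male, unlike for Hspa8 alone. The summed genotype folds were again within their error, at 0.13 (SE 0.16) in UTRmut against WT and 0.07 (SE 0.16) in het against WT.

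**Figure D3:**
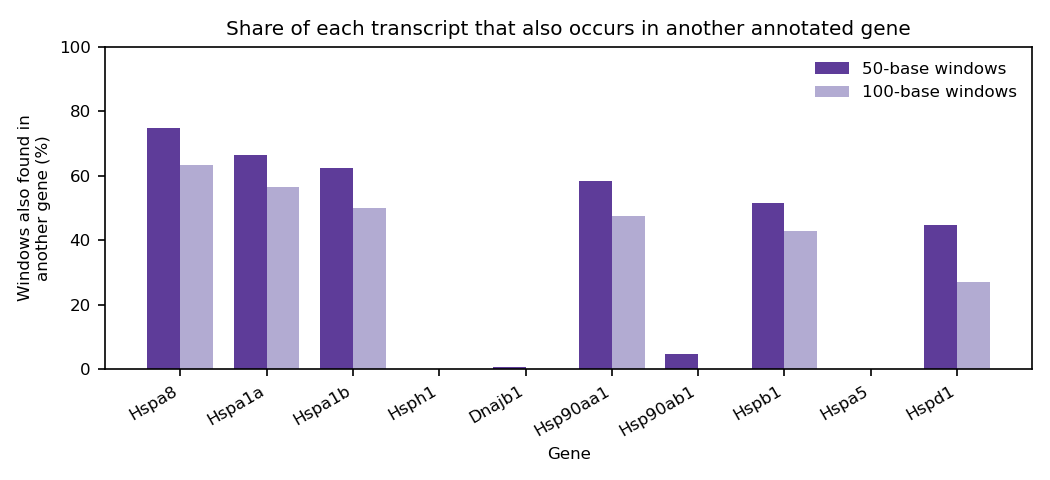
Share (percent, vertical axis) of the 50-base and 100-base windows of each chaperone transcript that also occur in a transcript of another annotated gene. Hspa8, Hspa1a, Hspa1b, Hsp90aa1, Hspb1 and Hspd1 share 44.8% to 74.8% of their 50-base windows, whereas Hsph1 and Hspa5 share 0%.

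Hsph1 (chr5:149614287-149636376, minus strand) encodes the HSP110 chaperone that exchanges nucleotide on HSP70 and is itself strongly heat-inducible. None of its 50-base windows occurs in another gene. Its level was 224, 276 and 328 CPM in the WT, het and UTRmut females, and 347, 274 and 254 CPM in the males. It was lowest in the WT female and highest in the WT male, with both het libraries in between. The genotype means were therefore nearly level, with log2 folds of 0.03 (SE 0.23) in UTRmut against WT and -0.05 (SE 0.23) in het against WT.

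Dnajb1 (chr8:83608193-83612653, plus strand) encodes the J-domain partner that hands substrates to HSP70. It had 50.3, 56.1 and 64.5 CPM in the WT, het and UTRmut females and 64.9, 67.4 and 57.4 CPM in the males. As for Hsph1, the WT female was lowest and UTRmut lay above WT in the females but below it in the males. The log2 fold of UTRmut against WT was 0.08 (SE 0.14) and that of het against WT 0.10 (SE 0.14).

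The HSP90 genes encode the chaperones of kinases and steroid receptors, Hsp90aa1 (chr12:110690605-110702728, minus strand) being the more inducible and Hsp90ab1 (chr17:45567775-45573271, minus strand) the more constitutive. Hsp90aa1 had 801, 796 and 930 CPM in the WT, het and UTRmut females and 926, 947 and 905 CPM in the males. Hsp90ab1 had 1045, 1024 and 1143 CPM in the females and 1197, 1126 and 1202 CPM in the males. Both varied little, the highest library being 1.19 times the lowest for Hsp90aa1 and 1.17 times for Hsp90ab1, and the WT and het females were the lowest libraries for both. Log2 folds of UTRmut against WT were 0.09 (SE 0.10) for Hsp90aa1 and 0.06 (SE 0.09) for Hsp90ab1.

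Hspb1 (chr5:135887919-135889563, plus strand) encodes a small heat shock protein that holds unfolding proteins and is found in glia and vessels of the brain. It had 11, 16 and 14 counts in the WT, het and UTRmut females and 18, 28 and 15 in the males. The het male was highest, but the het female, at 1.67 CPM, was only just above the WT male at 1.56 CPM. The log2 fold of het against WT was 0.71 (SE 0.43, interval -0.21 to 1.63), the largest of the members, and that of UTRmut against WT -0.01 (SE 0.45).

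Hspa5 (chr2:34771970-34777547, plus strand) encodes the HSP70 of the endoplasmic reticulum, which binds nascent secreted proteins and holds the stress sensors of that organelle inactive. Its level was 315, 466 and 463 CPM in the WT, het and UTRmut females and 449, 467 and 376 CPM in the males. The WT female was far below the rest, followed by the UTRmut male. Both het libraries were above both WT libraries, with a log2 fold of 0.29 (SE 0.17, interval -0.11 to 0.69, edgeR adjusted p = 0.9998 after Benjamini-Hochberg). Without the WT male the log2 fold was 0.57 (SE 0.12, adjusted p = 0.0447), when the WT female alone stood for WT and was assumed to vary like the other groups. In UTRmut against WT the log2 fold was 0.14 (SE 0.17).

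Hspd1 (chr1:55077835-55088243, minus strand) encodes the mitochondrial chaperonin HSP60. With 116, 128 and 133 CPM in the WT, het and UTRmut females and 137, 132 and 127 CPM in the males it was the steadiest member, with a coefficient of variation of 5.47% over the 6 libraries. The WT female was again lowest and the WT male highest. The log2 fold of UTRmut against WT was 0.04 (SE 0.10, interval -0.17 to 0.25). Hspd1 overlaps Hspe1, which encodes its co-chaperonin, by 112 bases on the opposite strand.

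Between the sexes, with genotype in the model, all 10 chaperones had a negative log2 fold of female against male, with a median of -0.15, beside -0.002 over all genes. This direction was not particular to them. Positive folds were found for 0 of 6 markers each of astrocytes (median -0.08), oligodendrocytes (-0.15) and microglia (-0.14). The CCT and prefoldin list had 0 of 14 positive (-0.13), whereas neuronal markers had 3 of 8 and clock genes 11 of 16. None of the 10 passed (0 of 10, beside 0.0372% of all genes in either direction and 0.031% as lower in females), and DESeq2 also called 0. Hspa8 and Hsp90ab1, 2 of 10, had an unadjusted p under 0.05 as lower in females, beside 2.18% of all genes. For Hspa8 the log2 fold of female against male was -0.21 (SE 0.05, unadjusted p = 0.00261, edgeR adjusted p = 0.549 after Benjamini-Hochberg). Its 3 female libraries lay below its 3 male libraries, which held for 5.84% of all genes, while 6.45% had all females above all males. Both results depend on how reads were assigned. Summed with Gm15459 the log2 fold was -0.21 (SE 0.10, edgeR unadjusted p = 0.0657, adjusted p = 0.735 after Benjamini-Hochberg). In that sum the UTRmut female, at 1834 CPM, was above the UTRmut male, at 1754 CPM. Hsp90ab1 had -0.14 (SE 0.06, adjusted p = 0.686) and was lower in the female of each genotype.

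The WT female was the lowest of the 6 libraries for 5 of the 10 members, beside 21.7% of all genes. For 7 of the 10 members, Hsph1, Hspa5, Hspa1a, Hsp90aa1, Dnajb1, Hspb1 and Hspd1, UTRmut was above WT in the females and below WT in the males, beside 26.7% of all genes. Some of these log2 differences were close to 0, such as 0.04 for Hspa1a in females and -0.03 for Hsp90aa1 in males. Hspb1 had only 11 and 14 counts in the WT and UTRmut females and 18 and 15 in the males. The change per mutant allele was also compared between the sexes. No sex and genotype had a replicate library in this comparison. Its SE and p therefore measure departure from a straight line over the number of mutant alleles, not spread between replicates. This fit reads the same 6 libraries as the numbers of members just given, so it restates that pattern and is no independent evidence of it. The difference was positive for all 10 members, with a median of 0.15 on the log2 scale beside -0.005 over all genes. Its interval included 0 for 6 of the 10. Leaving out 1 library could turn the sign for Hspa8, Hspa1a, Hspa1b, Hsp90ab1 and Hspb1. One member, Hsph1, passed (1 of 10, beside 1.2% of all genes in either direction and 0.893% as higher in females), and DESeq2 also called Hsph1 alone of the members. At an unadjusted p under 0.05 there were 4 of 10, Hsph1, Hspa5, Dnajb1 and Hspd1, beside 7.39% of all genes as higher.

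For Hsph1 the change per mutant allele was 0.50 higher in females than in males on the log2 scale (SE 0.07, interval 0.36 to 0.64, edgeR adjusted p = 0.0013 after Benjamini-Hochberg). Within the sexes, UTRmut minus WT was 0.55 in females and -0.45 in males, and the het libraries lay between in each. The call was lost without either WT library, where the difference kept its sign and the SE was larger. Without the WT female the difference was 0.47 (SE 0.11, adjusted p = 0.137), and without the WT male it was 0.39 (SE 0.11, adjusted p = 0.0598). Leaving out any other library kept the call. Each sex and genotype was 1 library, so a difference between the sexes and a difference between individual libraries cannot be told apart.

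Hspa5 had a difference of 0.40 (SE 0.12, adjusted p = 0.219), from 0.56 in females and -0.25 in males for UTRmut minus WT. It passed in 5 of 13 alternatives, among them leaving out the WT male (0.59, adjusted p = 8.12e-05) or the UTRmut female (0.69, adjusted p = 0.014), and leaving out either het library (0.41 in each, adjusted p = 0.0126 and 1.4e-06). Without the WT female it was 0.12 (adjusted p = 0.83) and without the UTRmut male 0.22 (SE 0.11). Dnajb1 had 0.27 (SE 0.09, adjusted p = 0.161) and Hspd1 0.15 (SE 0.07, adjusted p = 0.353). The remaining differences were 0.24 for Hspb1 (SE 0.46), 0.16 for Hspa1a (SE 0.44), 0.12 for Hsp90aa1 (SE 0.07) and 0.06 or less for Hsp90ab1, Hspa8 and Hspa1b. Hspa8 summed with Gm15459, an alternative chosen after seeing the data, had 0.28 (SE 0.06, adjusted p = 0.0353), whereas Hspa8 alone had 0.02 (SE 0.07) and Gm15459 alone 1.35 (SE 0.49, adjusted p = 0.475).

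**Figure D4:**
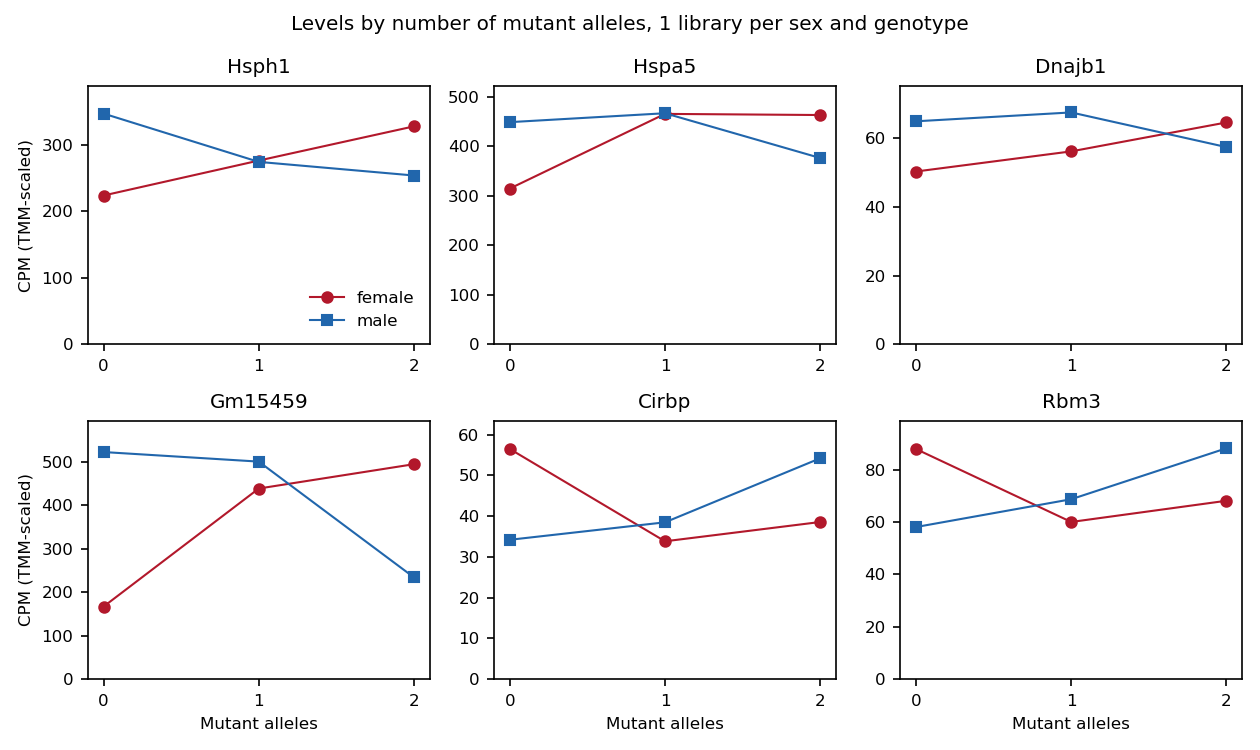
TMM-scaled counts-per-million (vertical axes, from 0) against the number of mutant alleles for 3 members, the pseudogene Gm15459 and the cold-inducible genes Cirbp and Rbm3, with 1 library per point and lines joining libraries of 1 sex. Hsph1 runs from 224 to 328 CPM in females and from 347 to 254 CPM in males, whereas Cirbp and Rbm3 are highest in the WT female and the UTRmut male.

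Genes that act with the members were described from lists. Of 7 measured relatives of HSP70 and HSP110, none passed between genotypes, and the smallest unadjusted p in UTRmut against WT belonged to Hspa2 (log2 fold 0.23, SE 0.12) and Hspa13 (0.20, SE 0.11). The list of 12 J-domain proteins and the list of 20 co-chaperones of HSP70 and HSP90 also held no gene that passed between genotypes. Their median log2 folds in UTRmut against WT were 0.06 and 0.02. The co-chaperone list also holds the HSP90 chaperones Hsp90b1 and Trap1. In the same comparison 12 of 14 subunits of the CCT chaperonin and prefoldin had positive folds, with a median of 0.09, and none passed; Pfdn5 had 0.23 (SE 0.10) and Tcp1 0.22 (SE 0.10). The 5 measured small heat shock proteins outside the members and the 12 mitochondrial genes had medians of 0.03 and 0.02, with none passing.

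Hsf1 itself, the factor that drives the inducible members, had 21.1, 22.0 and 16.8 CPM in the WT, het and UTRmut females and 21.1, 19.6 and 20.2 CPM in the males. Both UTRmut libraries were below both WT libraries, and the log2 fold was -0.19 (SE 0.15, interval -0.50 to 0.12). Of 20 other genes commonly induced with heat shock, none passed between genotypes, and their median log2 fold in UTRmut against WT was 0.003. Serpinh1, a collagen chaperone, had 0.47 (SE 0.16) in het against WT and did not pass.

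In the difference between the sexes, some genes of these lists passed in the same direction as Hsph1, as did 0.893% of all genes. Hspa4, an HSP110 relative and 1 of 7 in its list, passed at 0.34 (SE 0.07, edgeR adjusted p = 0.0167 after Benjamini-Hochberg), as did the J-domain gene Dnajb5, 1 of 12, at 0.44 (SE 0.09, adjusted p = 0.0362). The HSP90 co-chaperone Chordc1, 1 of 20 in the co-chaperone list, passed at 0.35 (SE 0.08, edgeR adjusted p = 0.0325 after Benjamini-Hochberg). Ier5, a co-factor of Hsf1, passed at 0.38 (SE 0.09, adjusted p = 0.0446). With Chordc1 it made 2 of 20 in the list of other heat-induced genes. Of 22 measured endoplasmic reticulum chaperones and unfolded protein response genes, 21 had a positive difference, with a median of 0.26, and 1 passed: Atf4, a transcription factor of the integrated stress response, at 0.37 (SE 0.08, adjusted p = 0.0245). The other lists varied. Positive differences were found for 5 of 7 HSP70 and HSP110 relatives (median 0.08) and 14 of 20 co-chaperones (0.12). Of the other heat-induced genes 15 of 20 were positive (0.16), and of CCT and prefoldin 11 of 14 (0.04). The J-domain list had 7 of 12 (0.02) and the mitochondrial list 7 of 12 (0.002). Small heat shock proteins had 2 of 5 (-0.05), and heat shock factors and regulators 1 of 5 (-0.09). Hsf1 had -0.13 (SE 0.12).

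Cirbp and Rbm3 encode RNA-binding proteins that rise when cells are cooled and fall when they are warmed. Here both stood high where Hsph1 stood low, and the cause of this pattern was not tested. Cirbp had 56.5, 33.8 and 38.6 CPM in the WT, het and UTRmut females and 34.2, 38.5 and 54.2 CPM in the males. Rbm3 had 88.0, 60.1 and 68.2 CPM in the females and 58.1, 68.8 and 88.2 CPM in the males. Both were highest in the WT female and the UTRmut male, the libraries in which Gm15459 was lowest and Hsph1 and Hspa5 had their 2 lowest levels. Not all members were low there, as Hspa8 was highest in the UTRmut male, at 1520 CPM. Neither passed in the difference between the sexes, at -0.62 for Cirbp (SE 0.15, edgeR adjusted p = 0.113 after Benjamini-Hochberg) and -0.49 for Rbm3 (SE 0.11, adjusted p = 0.0748).

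**Figure D5:**
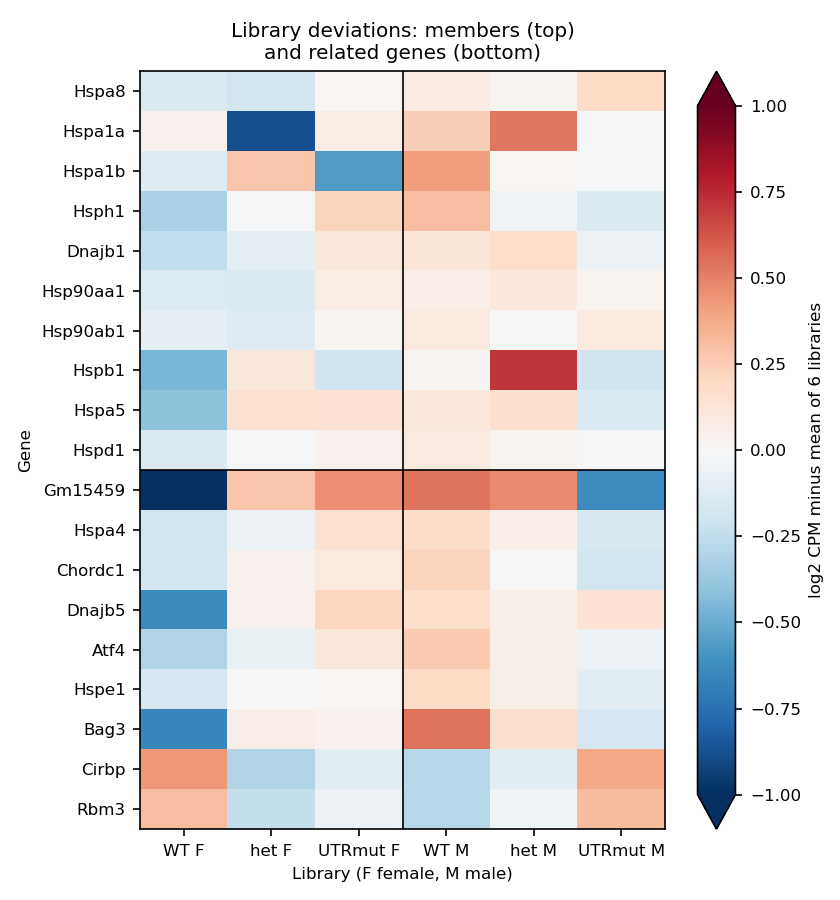
Log2 CPM of each gene in each library minus its mean over the 6 libraries (colour scale from -1 to 1), with the 10 members above the horizontal line and related genes beneath it, and females to the left of the vertical line. The WT female is low for Hsph1, Hspa5, Gm15459, Dnajb5 and Bag3 and high for Cirbp and Rbm3.

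Markers of other cell types differed among themselves in the same difference between the sexes, in which 1.2% of all genes passed. All 6 measured markers of meninges and fibroblasts had a positive value, with a median of 0.62, and none passed; their summed level was 331 and 395 CPM in WT, 500 and 698 CPM in het, and 558 and 297 CPM in UTRmut, female first. All 4 measured red blood cell genes were positive, with Hbb-bs (0.47, SE 0.08) and Hbb-bt (0.77, SE 0.17) passing and Hba-a2 at 0 in every library, and their sum was 150 to 179 CPM in females and 96.8 to 232 CPM in males. Of the 5 mural cell markers all were positive and Rgs5 passed (0.60, SE 0.10), with sums of 72.6 to 105 CPM. Of the 6 astrocyte markers 5 were positive and Aqp4 passed (0.38, SE 0.08), with sums of 1440 to 1720 CPM. None passed among the 8 neuronal markers (7 positive, median 0.05), the 6 of microglia (4 positive, median 0.15), the 3 of oligodendrocyte precursors (2 positive, median 0.16) or the 5 of endothelial cells (2 positive, median -0.02). The 6 oligodendrocyte markers were all negative, with a median of -0.18 and none passing, and summed to 2630 to 3480 CPM. Both measured choroid plexus markers were positive, with a median of 1.11, and neither passed; the 4 hippocampal markers were all positive, with a median of 0.13 and none passing. Their part in the result for Hsph1 was not tested. In RNA from whole tissue, fewer cells of a type and less RNA per cell cannot be told apart.

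The genes most like the members across libraries were ranked among 9694 genes with a mean of at least 10 CPM, by Pearson's r over 6 libraries as a description. For the mean profile of the 6 heat-inducible cytosolic members they were Ramp1 (r = 0.984), Ahsa1 (0.983), Lfng (0.976), Tbc1d20 (0.976) and Rab8a (0.975). That profile weighs all 6 equally, although Hspa1a, Hspa1b and Hspb1 have few counts. Their coefficients of variation were the largest of the members, at 31.6%, 24.6% and 34.6%. Hspa1a and Hspa1b had r = -0.22 with each other. Ahsa1 encodes the activator of the HSP90 ATPase, and its level was 64.6, 65.2 and 69.1 CPM in the WT, het and UTRmut females and 77.8, 78.8 and 70.1 CPM in the males. For Hsph1 alone, looked at after seeing the data, the closest gene was Dlgap3, a postsynaptic scaffold gene (r = 0.997), and for Hspa5 it was Dnajc1, a J-domain gene of the endoplasmic reticulum (r = 0.992). These values share the same 6 libraries and scaling, and no p is given.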

How the data were processed

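Total RNA libraries (TruSeq Stranded Total RNA, phenol/chloroform extraction, per the labels' protocols) gave 1 deposited table of raw read counts per Ensembl gene, which the authors did not normalize, as its whole numbers show. Build GRCm38 and the tools HISAT2, HTSeq 0.6.0, GATK 4.2.3.0 and Trimmomatic 0.39 are named in the submitters' processing notes. The strand setting, annotation release, read filters and the handling of reads with several matches were not given in the sources used here. Of the gene IDs, 55227 matched GENCODE, and the other 260 held 0.0162% of counts.

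Counts were filtered with filterByExpr (minimum count 10, minimum total 15), scaled by TMM and tested with edgeR 4.0.16 (R 4.3.3; robust quasi-likelihood F test, Benjamini-Hochberg over 16119 genes, threshold 0.05). Genotype was fitted as a factor over 6 libraries. Further fits used the number of mutant alleles, sex with genotype, and alleles by sex. The SE is the log2 fold divided by the root of F, and log2 CPM used a prior count of 2. DESeq2 1.42.0, other scalings and filters, a replicate block and leaving out each library were alternatives, and Hspa8 with Gm15459 summed was added after seeing the data. The test was run first on simulated data.

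The members and lists were chosen with earlier results of these data known. Named besides the members were Hsf1, Cirbp, Rbm3, Fos, genes of the lists that passed in any comparison, and the 2 genes of each list with the smallest p in UTRmut against WT and in het against WT, of which those that bear on the members are printed. Replicate numbers mark the sex and were not taken as pairs: same-numbered libraries deviated together with r = 0.214 for WT and het, -0.032 for WT and UTRmut and 0.064 for het and UTRmut over 15587 autosomal genes. Windows of 50 and 100 bases were matched exactly between GENCODE transcripts, with 1 coding transcript per member. No protein sequence was used here.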

Additional observations from a re-analysis of the deposited data

Results flagged for a closer look

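The change per mutant allele of Hsph1 differed between females and males by a test of the difference itself, at 0.50 on the log2 scale (SE 0.07, edgeR adjusted p = 0.0013 after Benjamini-Hochberg). Hsph1 was higher with more mutant alleles in the 3 female libraries (224, 276 and 328 CPM) and lower in the 3 male libraries (347, 274 and 254 CPM). Without the WT female the difference was 0.47 (SE 0.11, adjusted p = 0.137) and without the WT male 0.39 (SE 0.11, adjusted p = 0.0598), so it kept its sign while the call was lost. Each point is 1 library, so sex and library cannot be told apart. For the same reason the SE and p measure departure from a straight line over the number of mutant alleles, not spread between replicates.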

How the results depend on the processing

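Of 887 member folds under 15 alternative settings, none turned a called direction, 2 lost and 7 gained a call, and 72 changed sign, none of these called. The counts of members called in UTRmut against WT, UTRmut against het, per mutant allele and between sexes were 0 under every alternative run, and in het against WT 0 to 1 on leaving out 1 library (Hspa5 without the WT male). In the difference between the sexes the count of members, 1, was 2 without the low-count filter, 2 with Hspa8 and Gm15459 summed, and 0 to 2 on leaving out 1 library (0 without the WT female; Hspa5 in place of Hsph1 without the WT male). Counts over all genes depended more on the setting. In UTRmut against WT (1 gene) they were 5 with DESeq2, 27 without the filter, 0 at a minimum count of 50, 3 with only the 4 libraries compared and 2 to 124 on leaving out 1 library, the highest without the WT male. In het against WT (2) they were 13 without the filter, 1 with only 4 libraries and 1 to 41 on leaving out 1 library. In UTRmut against het (2) they were 6 with DESeq2, 28 without the filter, 1 at a minimum count of 50, 10 with only 4 libraries and 0 to 12 on leaving out 1 library. Per mutant allele (0) they were 3 with DESeq2, 19 without the filter and 0 to 45 on leaving out 1 library. Between sexes (6) they were 92 without the filter and 7 to 198 on leaving out 1 library. In the difference between the sexes (194) they were 76 with DESeq2, 600 without the filter and 16 to 733 on leaving out 1 library. With a replicate block (sex) the counts were 4 in UTRmut against WT, 3 in het against WT, 5 in UTRmut against het and 0 per mutant allele, and no member was called. Without the WT male the median log2 fold of the members was 0.24 in UTRmut against WT, 0.23 in het against WT and 0.29 in the difference between the sexes. The cause of these shifts was not tested. Leaving out a library leaves 1 in its genotype, assumed to vary like the others. The 2 libraries per genotype, and 7 to 32 counts per library for Hspa1a, Hspa1b and Hspb1, limit what could be detected.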

Other observations

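All 18 immediate-early genes, which neurons transcribe after activity, had positive log2 folds in UTRmut against WT, with a median of 0.43, and none passed. The WT libraries differed, with a median deviation from the gene means of -0.45 in the female and -0.03 in the male. Summed levels were 1660 and 2480 CPM in WT, 2420 and 2410 CPM in het, and 2850 and 2830 CPM in UTRmut, female first. Fos had 100, 130 and 141 CPM in the WT, het and UTRmut females and 101, 159 and 190 CPM in the males, with a log2 fold of 0.72 (SE 0.14, unadjusted p = 0.000602, edgeR adjusted p = 0.999 after Benjamini-Hochberg). Both WT libraries were below the other 4. In the difference between the sexes Fosb, Fosl2, Egr1 and Arc passed with a higher change per allele in females and Junb (-0.67, SE 0.10) with a lower one, 5 of 18, beside 1.2% of all genes called in that difference (0.893% higher and 0.31% lower). Of 10 glucocorticoid-responsive genes 9 had a positive difference, with a median of 0.48, and Fkbp5 (0.49, SE 0.10) and Tsc22d3 (0.60, SE 0.09) passed. Of 10 genes of oxidative stress and metallothioneins none passed in any comparison. Of 16 clock genes, a list added after seeing the data, Per2 (0.52, SE 0.08) and Cry1 (0.58, SE 0.11) passed in that difference and 8 had a positive value. Among markers of neighbouring brain regions Ppp1r1b, a striatal gene, passed in the same difference at -0.51 (SE 0.11).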
